A study of Mus musculus with 2 samples.

Results

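Mir204 and Mir211 are a pair of mouse microRNA genes that lie in introns of ion channel genes, Mir204 in Trpm3 and Mir211 in Trpm1. They were chosen by name and make up 2 of the 2202 microRNA genes counted. Every row identifier of the deposited count tables matched a microRNA gene of GENCODE M21, and both symbols were found. The data are microRNA sequencing counts from 2 libraries of hippocampal tissue of wild-type female mice of strain B6NCrl, named biological replicates 2 and 1 of one control group. The labels call the tissue a layer of hippocampus without naming the layer, and give no age, treatment or engineered allele. Both libraries carry one donor record and separate biosample records, so whether they came from separate animals is not known, and the p-values measure counting error alone. No other group exists, so the comparisons are between the 2 genes and between the 2 libraries.

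MicroRNAs are short RNAs cut from a hairpin that guide the silencing of messenger RNAs, mostly through the seed near the 5′ end. miR-204 is a well-known microRNA of the choroid plexus, the epithelium in the brain ventricles that makes cerebrospinal fluid, and of the retinal pigment epithelium. miR-211 is best known from melanocytes and the retinal pigment epithelium, where it is made together with its host Trpm1 under the transcription factor Mitf. Trpm3 encodes a heat- and steroid-gated cation channel of sensory neurons, brain and choroid plexus, and Trpm1 encodes the channel that ON bipolar cells of the retina use.

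The mature sequences show how alike the products are. They are given 5′ to 3′ from RefSeq on build GRCm38.p6, with the seed, bases 2 to 8, in capitals:
miR-204-5p: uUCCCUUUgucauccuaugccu
miR-211-5p: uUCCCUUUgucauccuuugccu
miR-204-3p: gCUGGGAAggcaaagggacgu
miR-211-3p: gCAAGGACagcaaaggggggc

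The 5p products, from the left arm of each hairpin, share their seed and differ at 1 of 22 positions, A17U, counted from 1 at the 5′ end with the miR-204 base first. The shared seed pairs with the target letters AAAGGGA. The 3p products have different seeds and differ at 7 of 21 positions. The pair is therefore one family by its 5p arm only. Of 1738 mature mouse sequences searched in RefSeq, 3 carry the seed UCCCUUU, and the third is miR-7670-3p on chromosome 6, which differs from the pair outside the seed:
miR-7670-3p: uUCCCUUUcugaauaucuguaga

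Mir7670 had 1 count in replicate 2 and 0 in replicate 1, where a count of 0 allows up to 0.447 CPM (counts per 1000000 sense counts on microRNA genes). This limit, here and for other genes without a count, is the level of 3 counts, and it is lower than the upper end of the 2-sided exact interval, 0.549 CPM.

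The hairpins are shown with both mature arms in capitals. Mir204 (ENSMUSG00000065507.3) lies at chr19:22750605-22750672 and Mir211 (ENSMUSG00000065585.1) at chr7:64205806-64205911, both on the plus strand of GRCm38:
Mir204: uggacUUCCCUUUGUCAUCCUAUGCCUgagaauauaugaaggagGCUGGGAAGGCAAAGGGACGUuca
Mir211: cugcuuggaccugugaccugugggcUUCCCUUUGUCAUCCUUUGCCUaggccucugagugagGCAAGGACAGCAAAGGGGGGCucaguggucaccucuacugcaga

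The annotated hairpin of Mir204 has 68 bases and that of Mir211 has 106, with 17 and 15 bases between the arms. RNAfold predicted a minimum free energy of -33.7 kcal/mol for Mir204 and -57.6 kcal/mol for Mir211, and in both structures 19 of the 22 bases of the 5p arm were paired. The longest stretch that either hairpin has in common with any other annotated hairpin is 17 bases, shorter than a mature product. A full-length read can thus be placed at 1 gene of the pair, but by 1 base only for the 5p arm. The counts are per gene, so reads of the 5p and 3p arms cannot be told apart. A misread base at position 17 would carry a 5p read of one gene to the other, and its part in the counts was not tested.

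**Figure D1:**
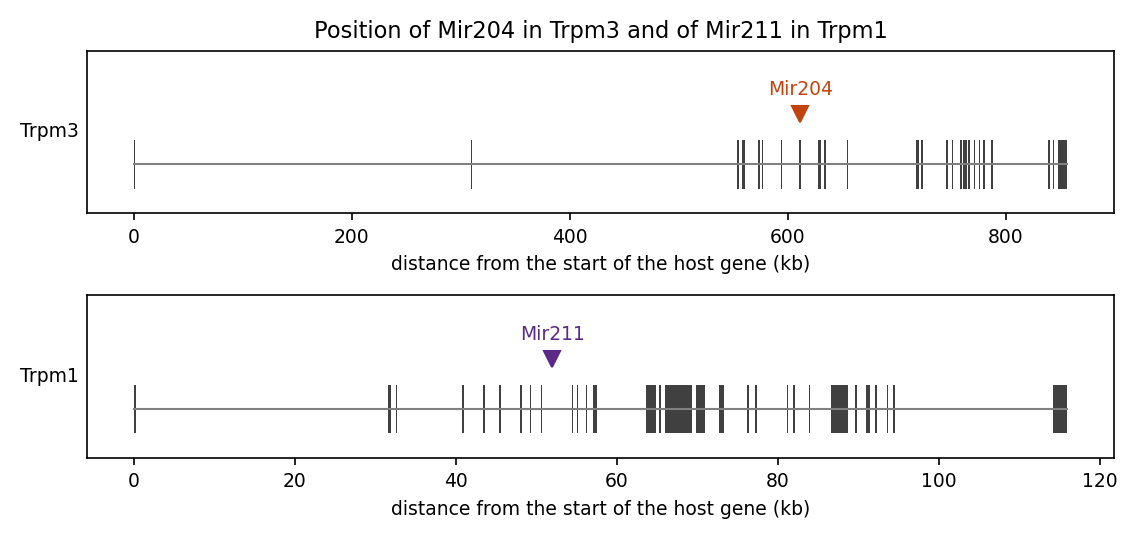
Position of Mir204 in Trpm3 (top) and Mir211 in Trpm1 (bottom), with annotated exons of all transcripts as dark boxes (drawn at a minimum width so that they can be seen) and distance from the host's start in kb. Mir204 lies 611.6 kb into a host of 856.4 kb, close behind an exon, and Mir211 lies 52.0 kb into a host of 115.9 kb.

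Both genes are intronic and run in the direction of their hosts. Trpm3 spans 22139046 to 22995410 on chromosome 19, and 18 of its 24 annotated transcripts span Mir204. All 18 hold Mir204 in an intron. The stretch that these introns have in common is 16.8 kb long, and the nearest exon ends 759 bases upstream. Trpm1 spans 64153835 to 64269775 on chromosome 7, and 12 of its 23 annotated transcripts span Mir211. All 12 hold Mir211 in an intron. The stretch that these introns have in common is 3.68 kb long, with 1212 bases to the nearest exon upstream and 2364 to the nearest downstream. No microRNA gene lies opposite either member. The one other microRNA gene within a host, Mir6416 on the opposite strand of Trpm1, had 0 counts in both libraries, which allows up to 0.508 CPM in replicate 2 and 0.447 CPM in replicate 1.

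Replicate 2 held 5901107 sense counts and replicate 1 held 6713867, which were 41.3% and 42.5% of all reads. A further 45.9% and 43.9% of reads were multimapping and counted for no gene. Levels below are CPM of sense counts, with exact Clopper-Pearson 95% intervals in each library that cover counting error only, since no molecular identifiers are recorded. Neuronal marker microRNAs were present. The 9 listed genes summed to 29610 CPM in replicate 2 and 28558 CPM in replicate 1, with Mir132 the highest. Mir124a-1 had 5 counts in replicate 2 and 8 in replicate 1, Mir124a-3 had 1 and 7, and Mir124a-2 had none. The 3 Mir124a hairpins share 32 bases, so most of their reads would map to several places. Mir128-1 and Mir128-2 each share 23 bases with another hairpin, and Mir138-1 and Mir138-2 each share 24. The sum thus leaves out shared reads of these genes too.

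Mir204 was a well-expressed microRNA gene of this tissue and Mir211 had few counts. Mir204 had 9755 counts in replicate 2 and 10286 in replicate 1. These are 1653 CPM (interval 1620 to 1686) and 1532 CPM (interval 1503 to 1562), with a mean of 1593 ± 85.6 CPM (SD, n = 2). Both libraries thus placed it near the same level, at 0.165% and 0.153% of the sense counts. It ranked 61 in replicate 2 and 73 in replicate 1, and 68 of all genes by mean level. Ranks here and below leave out multimapping reads, so genes that share a mature sequence may stand too low in them. Mir204 shares at most 17 bases with another hairpin, so its rank may be too high.

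Mir211 had 20 counts in replicate 2 and 35 in replicate 1. These are 3.39 CPM (interval 2.07 to 5.23) and 5.21 CPM (interval 3.63 to 7.25), with a mean of 4.30 ± 1.29 CPM (SD, n = 2). Both values lie above the limit that a count of 0 allows, 0.508 and 0.447 CPM, and the 2 intervals overlap. Neither that limit nor the intervals cover Mir204 reads misread at position 17. How many of these counts are such reads was not tested, so Mir211 expression itself is not settled. It ranked 388 in replicate 2 and 355 in replicate 1, and 371 by mean level among 787 genes with any count.

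**Figure D2:**
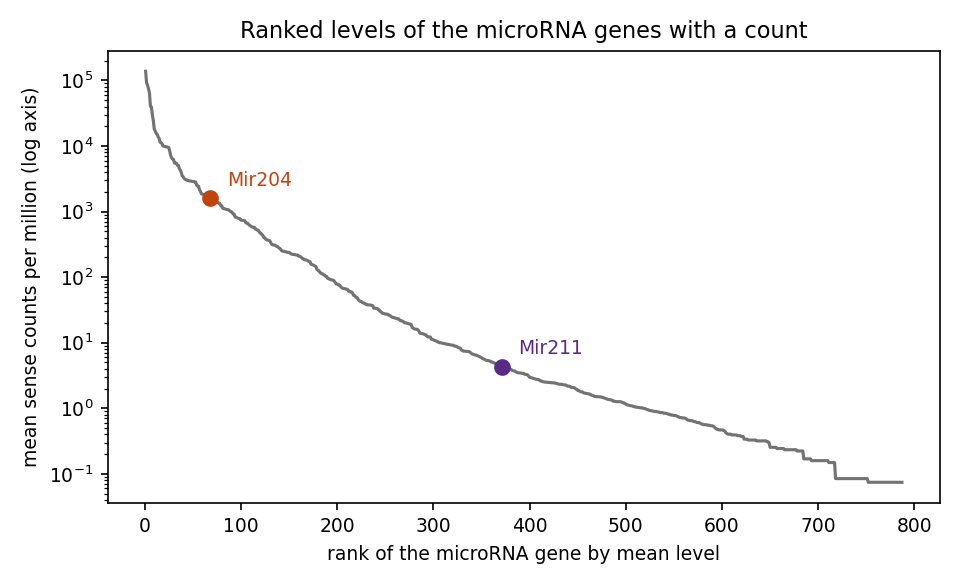
Mean level in CPM (log axis) against rank for the 787 microRNA genes with a count in either library (grey line), with Mir204 and Mir211 marked. Mir204, at a mean of 1593 CPM, sits at rank 68 on the upper part of the curve, and Mir211, at 4.30 CPM, at rank 371.

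Against other microRNA genes of the same kind the contrast was similar. There were 741 microRNA genes that lay in an intron of a protein-coding gene on the same strand, and 363 of them had a count. Mir204 ranked 22 among these 741 genes and Mir211 ranked 150. The tests below used the 466 genes whose counts averaged 10 or more. Their median level was 37.7 CPM, and it was 19.0 CPM for the 207 intronic ones among them, so the 2 members lie far apart on either side of both medians.

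Within each library Mir204 far exceeded Mir211. The mature products of each arm have the same length in both genes, so the ratio of counts was not corrected for length. Its intervals cover counting error only. Counts are per gene, so the mix of arms behind the ratio is not known. Any 5p read misread at position 17 would count for the other gene, and the part of such reads in the ratio was not tested. In replicate 2 the ratio of Mir204 to Mir211 counts was 488 (interval 316 to 799), and in replicate 1 it was 294 (interval 211 to 422). The mean log2 ratio was 8.56 ± 0.52 (SD, n = 2). Mir211 supplied 0.205% of the pair's counts in replicate 2 (interval 0.125 to 0.316) and 0.339% in replicate 1 (interval 0.236 to 0.471).

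The gap between the 2 genes was somewhat wider in replicate 2, but not beyond counting error. The log2 ratio of Mir204 to Mir211 was 0.73 higher in replicate 2 (counting SE 0.40), with p = 0.0788 in a 2-sided Fisher exact test of the 4 counts. This ratio does not depend on library scaling, and it was the 1 comparison made of this kind. Counted without strand, Mir211 had 20 counts in replicate 2 and 37 in replicate 1, and the same exact test gave p = 0.0462 with a log2 difference of 0.81. The call therefore rests on 2 antisense counts at Mir211 in replicate 1, where 2 of 37 counts, 5.41%, lay on the opposite strand (interval 0.661 to 18.2). Mir204 had 0 antisense counts in both libraries. At the 2138 genes that face no other microRNA gene, 0.00293% of counts in replicate 2 and 0.00303% in replicate 1 were antisense. These shares pool the counts of all genes, so abundant genes weigh most, and they are no measure for 1 gene with few counts. Of the 2138 genes, 34 in replicate 2 and 41 in replicate 1 had an antisense count.

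Between the libraries Mir204 was slightly higher in replicate 2, and Mir211 did not pass the test. Its 9755 counts in replicate 2, against 10286 in the deeper replicate 1, gave Mir204 a log2 ratio of 0.27 (counting SE 0.02), a 1.21-fold difference, after scaling by the trimmed mean of M values (TMM, which takes most genes as unchanged). The 2-sided Fisher exact test, run on all 466 genes and adjusted by the Benjamini-Hochberg method over them, works on unscaled totals, and on those the log2 ratio of Mir204 was 0.11, a 1.08-fold difference, with an adjusted p of 2.06e-07. An exact binomial test on TMM-scaled library sizes, which matches the ratio of 0.27, gave an adjusted p of 1.56e-39. The median of all 466 genes was -0.02 under TMM and -0.18 under totals. Relative to that median Mir204 stood at 0.29, a distance that scaling cannot change because it shifts all genes alike. For Mir211 the log2 ratio was -0.44 under TMM (counting SE 0.40), with an adjusted p of 0.375 in the exact binomial test, and -0.61 under totals, with an adjusted p of 0.203 in the Fisher exact test. Its fold under TMM was 0.727, with an exact counting interval of 0.398 to 1.29 that includes both no change and a halving.

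A call of this kind was common. In all 53.6% of the 466 genes passed with 1 sign under 3 scalings, 18% higher (84 genes) and 35.6% lower (166 genes) in replicate 2, so 1 call among 2 members lies near the background. With Mir139, the most abundant gene, left out of the totals, 118 genes were higher and 136 lower. The test covers counting error only and compares these libraries, not conditions. The size of the Mir204 ratio was below the median size over all tested genes, 0.36, and 182 of the 466 genes had a smaller one. On the CPM scale the coefficient of variation was 5.37% for Mir204 and 30.0% for Mir211, against a median of 20.2%, and 70 of 466 genes had a smaller one than Mir204.

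**Figure D3:**
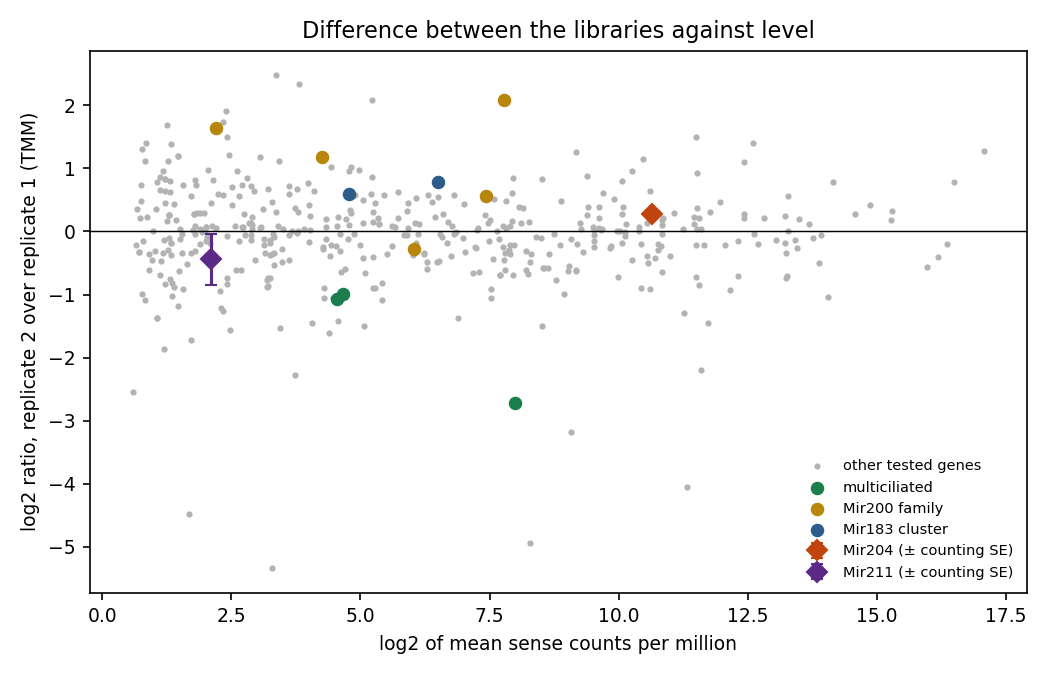
Log2 ratio of replicate 2 over replicate 1 under TMM against log2 mean level for the 466 tested genes, with Mir204 and Mir211 (diamonds, bars of 1 counting SE) and 3 marker lists in colour. Mir204 lies at 0.27 within the main cloud, Mir211 at -0.44 has a bar that nearly reaches 0, and the multiciliated genes lie below 0.

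Genes known from ciliated and other epithelial cells were set beside the pair, because the choroid plexus and the ependyma that lines the ventricles are epithelia with cilia. In bulk tissue, fewer cells of a type and less RNA per cell cannot be told apart. Mir204 was the most abundant of the 15 genes in these 4 lists and supplied 65.5% of their summed level in replicate 2 and 61.7% in replicate 1. The sum came to 2522 CPM in replicate 2 against 2482 CPM in replicate 1, a mean of 2502 ± 28.4 CPM (SD, n = 2). The sum was similar in both libraries although lists within it went opposite ways.

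The multiciliated list, with the Mir34b/Mir34c and Mir449 genes that promote the formation of motile cilia, fell. Of its 5 genes, 3 were tested and all 3 were lower in replicate 2, with a median log2 ratio of -1.06, while Mir449b and Mir449c had no count. Mir34c had 361 counts (61.2 CPM) in replicate 2 against 3028 (451 CPM) in replicate 1, so its log2 ratio was -2.72 (SE 0.08). Mir34b, its neighbour, had 92 counts in replicate 2 against 233 in replicate 1, at -0.99 (SE 0.18). Mir449a, in an intron of Cdc20b, had 82 counts in replicate 2 against 219 in replicate 1, at -1.06 (SE 0.19). The list summed to 90.7 CPM in replicate 2 against 518 CPM in replicate 1, so that Mir204 was 18.2 times that sum in replicate 2 and 2.96 times in replicate 1.

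The Mir200 family, whose members hold cells in the epithelial state by repressing Zeb1 and Zeb2, rose in 4 of 5 genes. Mir200b had 2064 counts in replicate 2 against 620 in replicate 1, and its log2 ratio was 2.08 (SE 0.07). Mir200a, with 150 counts in replicate 2 and 84 in replicate 1, stood at 1.18 (SE 0.20), and Mir429, from the same cluster, with 1152 and 991 counts, at 0.56 (SE 0.06). Mir141 had 40 counts in replicate 2 and 16 in replicate 1, at 1.64 (SE 0.42), and its neighbour Mir200c was lower, with 330 and 510 counts and a ratio of -0.28 (SE 0.10). The family summed to 633 CPM in replicate 2 against 331 CPM in replicate 1. Members of a cluster share a transcript and are not independent.

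The Mir183 cluster of sensory and epithelial cells was higher in replicate 2 in both tested genes. Mir183 had 646 counts in replicate 2 against 480 in replicate 1, at a log2 ratio of 0.78 (SE 0.09), and Mir182 had 186 and 157 counts, at 0.59 (SE 0.16). Mir96, the third gene, had 5 and 4 counts and was not tested. Together the 3 genes reached 142 CPM in replicate 2 against 95.5 CPM in replicate 1. All ratios of these lists are under TMM, and all calls are from the adjusted Fisher exact test on unscaled totals described above. The genes of each list were chosen with earlier results known. Over all tested genes, 18% were called higher and 35.6% lower, and the counts of each list are to be read against these shares.

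**Figure D4:**
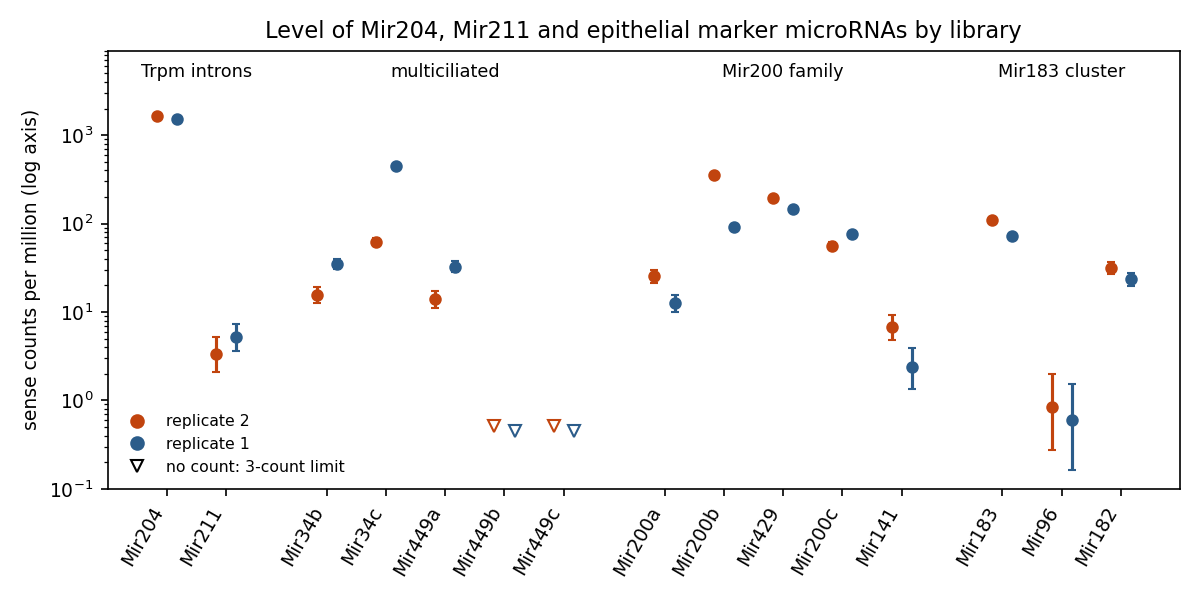
CPM (log axis) of Mir204, Mir211 and 13 epithelial marker microRNAs in replicate 2 (red) and replicate 1 (blue), with bars for exact 95% intervals of counting error and open triangles for the limit that 0 counts allow. Mir204 is the highest gene in both libraries and its points nearly meet, whereas Mir34c and Mir200b are far apart in opposite directions.

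Markers of other cell types also differed between the libraries. The 3 oligodendrocyte genes summed to 3193 CPM in replicate 2 and 7078 CPM in replicate 1, with 2 of the 3 lower. Of these, Mir219a-1 and Mir219a-2 each share 22 bases with another hairpin, so their counts leave out shared reads. Mir126a of endothelium was lower, at 2897 CPM in replicate 2 against 6191 CPM in replicate 1. Mir451a of erythrocytes was lower as well, at 25.2 CPM against 60.2 CPM. Of 6 tested neuronal genes, 3 were higher and 3 lower. The libraries also name different adapter trimming documents. The part of these differences in the Mir204 ratio was not tested.

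The genes nearest to each member in level were found by distance in log2(CPM + 1) over the 2 libraries. For Mir204 they were Mirlet7f-2, Mir150, Mir1249, Mir409 and Mir137, at distances of 0.164 to 0.321. Mirlet7f-2, a let-7 gene, had 1478 CPM in replicate 2 and 1502 CPM in replicate 1, but it shares 22 bases with another hairpin and its count leaves out shared reads. Mir137, a microRNA of neurons, had 1889 CPM in replicate 2 and 1832 CPM in replicate 1. For Mir211 they were Mir3058, Mir6962, Mir6940, Mir499 and Mir3474, at distances of 0.0350 to 0.213. Mir3058 and Mir6962 each had 20 counts in replicate 2 and 34 in replicate 1. Mir499, a microRNA of heart and slow muscle in an intron of Myh7b, had 21 counts in replicate 2 and 30 in replicate 1.

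In the order of mean levels Mir204 stood between Mir154, at 1656 ± 467 CPM, and Mir150, at 1559 ± 362 CPM (SD, n = 2). Of its 5 neighbours above and 5 below, 8 had values that overlapped its own 2 values, the exceptions being Mir409 and Mirlet7f-2. Mir211 stood between Mir6988, at 4.31 ± 0.62 CPM, and Mir6940, at 4.25 ± 0.73 CPM (SD, n = 2), and all 10 neighbours overlapped it. The exact place of either gene in this order is thus not resolved by 2 libraries.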

How the data were processed

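The authors deposited raw counts of reads per microRNA gene, 1 table for each of 2 libraries, on assembly mm10 with annotation M21, per the notes deposited with them. Which aligner and counter were used is not given in the sources used here. The tables each have 3 count columns without headings. From their values they are counts without strand, on the gene's strand (sense, used here) and on the opposite strand. The 4 read classes stayed out of totals: 58.7% of reads in replicate 2 and 57.5% in replicate 1.

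Sense counts were scaled to CPM over all gene rows. Symbols, hosts and hairpins came from GENCODE M21, and mature sequences from RefSeq (GRCm38.p6), which held both members. Ratios added 0.5 counts and were scaled by TMM over all genes (edgeR 4.0.16), with totals and DESeq2 1.42.0 size factors as alternatives. With 1 group no edgeR test between conditions exists. A 2-sided Fisher exact test (scipy 1.17.1), Benjamini-Hochberg adjusted at 0.05 over the 466 genes averaging at least 10 counts, compared the libraries, and a call also needed 1 sign under 3 scalings. Structures came from RNAfold 2.7.2. The test was checked on simulated data.

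Named genes were the 2 members, the marker lists, the 5 genes nearest to each member in level, genes within the hosts, genes with the same seed and the most abundant gene, Mir139, which held 18.8% of sense counts in replicate 2 and 8.72% in replicate 1. Members and lists were chosen with earlier results of these data known.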

Additional observations from a re-analysis of the deposited data

Results flagged for a closer look

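Antisense counts, which no comparison of levels uses, lay above the limit of 3 counts that a count of 0 allows at 2 of the genes named. Mir34b had 10 antisense counts in replicate 2 and 10 in replicate 1, beside 92 and 233 sense counts. Mir200a had 4 antisense counts in replicate 1 and 0 in replicate 2. The 2 antisense counts of Mir211 in replicate 1 lay under that limit.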

How the results depend on the processing

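The log2 ratios moved with the scaling and the counts added, between 0.11 (totals) and 0.27 for Mir204 and between -0.61 (totals) and -0.40 (2 counts added) for Mir211. The Fisher test uses neither, so totals, DESeq2 size factors and 2 added counts could not change its p and say nothing about the stability of a call. In the other 5 alternatives Mir204 was called higher, with adjusted p from 7.8e-42 to 6.04e-07, and in the other 4 Mir211 stayed uncalled, with adjusted p from 0.133 to 0.375. With a minimum mean of 50 counts it was not tested. The number of genes called was 233 to 254, against 250. Counted without strand, the difference between the libraries in log2 of Mir204 over Mir211 was 0.81 and passed the exact test.

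Levels follow the denominator by construction. Ranks within a library do not, and they moved where a setting took genes or their counts out. Without strand, some genes near or above Mir204 in level lost their counts. Mir338 had 8925 sense counts in replicate 2 and 13031 in replicate 1, and Mir409 had 10508 and 12464. Both had 0 counts without strand in both libraries. The limit of 18 shared bases drops genes from the ranking. Without strand, Mir204 had 1701 CPM at rank 59, Mir211 rank 342 and the 15 epithelial genes 2675 CPM. Without Mir139 in the totals, Mir204 had 1858 CPM and the 15 genes 2913 CPM. With only genes that share fewer than 18 bases, Mir204 had 2425 CPM at rank 53, Mir211 6.57 CPM at rank 282 and the 15 genes 3811 CPM. With all reads of the library as the total, Mir204 had 667 CPM, Mir211 1.81 CPM and the 15 genes 1048 CPM.

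Leaving out 1 replicate gave 1532 to 1653 CPM and ranks 61 to 73 for Mir204, 3.39 to 5.21 CPM and ranks 355 to 388 for Mir211, 2482 to 2522 CPM for the 15 genes, and a log2 of Mir204 over Mir211 of 8.20 to 8.93. With 20 and 35 counts, depth limits what can be said of Mir211. No paired analysis was possible because there is 1 group.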

Other observations

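Mir204 and Mir211 were set beside other microRNA pairs whose mature products of equal length differ at 1 base and whose hairpins share fewer than 18 bases. This survey was chosen after the values were seen. Counts were found for 4 such pairs. Mir211 made up 0.205% of its pair in replicate 2 and 0.339% in replicate 1. Mir106a made up 0.463% of its pair with Mir17 in replicate 2 and 0.827% in replicate 1, from 6 and 21 counts. Mir10b made up 6.25% of its pair with Mir10a in replicate 2 and 13.8% in replicate 1, from 2 and 18 counts. Mir100 made up 29.1% and 28.9% of its pair with Mir99a. Among these 4 pairs the Trpm pair had the most unequal shares in both libraries. No test was made, and with 6 counts of Mir106a in replicate 2 its order beside the Mir17 pair is not settled there.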
